A study of Rattus norvegicus with 6 samples.

Results

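The integrated stress response and unfolded protein response genes described here are 30 named genes, taken by symbol from the deposited expression table of 17366 transcripts. All 30 were found, and all 30 were among the 10390 transcripts that were tested, those that reached an FPKM of 1 in 3 or more libraries. FPKM is fragments per kilobase of transcript, scaled to library depth, so levels can be set beside each other between genes. By role the genes fall into 4 groups: 9 transcription factors and regulators, 8 enzymes and transporters of amino acid and one-carbon metabolism, 10 chaperones and folding factors of the endoplasmic reticulum (ER), and 3 genes of the XBP1 and ER-associated degradation branch.

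The integrated stress response begins when a stress-sensing kinase phosphorylates the translation factor eIF2 alpha. General protein synthesis then slows, while Atf4 mRNA is translated more, and the ATF4 protein turns on genes for amino acid uptake and synthesis, redox balance and, under lasting stress, cell death. The unfolded protein response overlaps with it through the kinase PERK, and adds the sensors IRE1, which splices Xbp1 mRNA, and ATF6, which is cut in the Golgi; both raise ER chaperones. In retinal ganglion cells, the neurons whose axons form the optic nerve, these pathways are known for their activation after axon injury.

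Per the labels, the cells were retinal ganglion cells (RGCs) of Sprague Dawley rats, age P5, cultured for 10 days. One set of 3 libraries came from cultures given Chrdl1 at 1 µg/ml for 12 h, and the other 3 from cultures given the vehicle, 0.1% BSA with 4 mM HCl. Chrdl1 (chordin-like 1) is a secreted antagonist of bone morphogenetic proteins, and the question stated by the series is how the transcriptome of treated cells compares with that of vehicle cells. Each sample title carries a numeric code, and each of the 3 codes is shared by 1 Chrdl1 and 1 vehicle library; in the order of the codes these pairs are called A, B and C. The labels do not say what a code stands for, nor that libraries of a group came from separate cultures or animals, so p-values measure only the spread between these libraries. The extraction protocol speaks of visual cortex, whereas the source, cell type and treatment labels give RGC cultures.

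The libraries were scaled to between 22870500 and 24198700 reads in the Chrdl1 group and between 14546600 and 26551700 reads in the vehicle group, the vehicle library of pair B being the shallowest. The 9 RGC markers found in the table, among them Sncg, Rbpms and Thy1, summed to 2175 to 2600.0 FPKM in Chrdl1 libraries and 2307 to 2602 FPKM in vehicle libraries. By code the RGC sums were 2600.0 to 2602 FPKM in pair A, 2296 to 2307 FPKM in pair B and 2175 to 2438 FPKM in pair C, and 7 of the 9 markers were called between codes by the limma F test used further on. Markers of other cells differed between the codes too. The 12 microglia and macrophage markers, 10 of which reached 1 FPKM in some library, summed to 202 to 247 FPKM in pair A, 14.6 to 27.2 FPKM in pair B and 271 to 301 FPKM in pair C. Within that list Cx3cr1 and P2ry12 stayed at or below 0.063 and 0.344 FPKM. Photoreceptor markers summed to 4.92 to 6.06 FPKM in pair A, 2.997 to 3.65 FPKM in pair B and 50.3 to 51.1 FPKM in pair C. The endothelial, mural and fibroblast markers had sums of 26.1 to 27.9 FPKM for pair A, 7.59 to 12.3 FPKM for pair B and 54.2 to 56.4 FPKM for pair C. For the astrocyte and Müller glia markers the sums were 98.6 to 103 FPKM, 69.0 to 80.6 FPKM and 150.3 to 162 FPKM in that order, and rested mainly on Glul (at most 82.5 FPKM) and Vim (at most 70.9 FPKM), whereas Gfap and Aqp4 did not exceed 1.24 and 0.017 FPKM. The amacrine and bipolar markers had sums of 21.9 to 22.6 FPKM in pair A, 23.1 to 23.4 FPKM in pair B and 60.1 to 62.5 FPKM in pair C. The oligodendrocyte lineage markers had sums of 13.9 to 15.7 FPKM in pair A, 16.9 to 20.003 FPKM in pair B and 15.3 to 16.3 FPKM in pair C.

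Promoters of 28 of the 30 genes were matched by symbol in the RefSeq promoter table (assembly GRCr8), which holds 300 bases per gene start, 250 before it and 50 after it. In all, 4 motifs of the pathway were searched on both strands. The ER stress response element ERSE, CCAAT and CCACG with 9 bases of any kind between them, was present in 5 of the 28 genes (Hspa5, Calr, Creld2, Hsp90b1 and Xbp1), against 0.0657% of all 33469 promoters and 0.191% of the 8370 promoters of tested genes. ERSE-II, ATTGG and CCACG with 1 base between them, was present in Hyou1 and Herpud1, against 0.0508% of all promoters and 0.0956% of those of tested genes. The C/EBP-ATF response element CARE, TGATGNAA, was present in Chac1, Trib3 and Herpud1, against 3.98% and 1.84%, and the unfolded protein response element UPRE, TGACGTGG, in Hyou1 alone, against 0.595% and 0.920%. Hyou1 and Slc3a2 each had 2 entries, and the Hyou1 entry with matches is printed. Of the 8 amino acid and one-carbon genes, 0 held a CARE match in this window. A match describes letters in the sequence and is not a site shown to be bound. The sequences below are shown because they carry the classical motifs of both branches, and because Hspa5 and Calr differed between the title codes while Hyou1 did not. They are written 5′ to 3′ on the gene's strand, with motif matches in capitals and the gene start after base 250.

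Hspa5 (chr3:38452766-38453065, plus strand): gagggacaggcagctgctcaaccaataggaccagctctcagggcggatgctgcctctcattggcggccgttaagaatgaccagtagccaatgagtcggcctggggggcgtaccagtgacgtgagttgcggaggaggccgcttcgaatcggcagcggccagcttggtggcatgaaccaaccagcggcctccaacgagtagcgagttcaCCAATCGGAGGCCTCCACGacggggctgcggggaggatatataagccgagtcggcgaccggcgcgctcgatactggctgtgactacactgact

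Calr (chr19:40213117-40213416, plus strand): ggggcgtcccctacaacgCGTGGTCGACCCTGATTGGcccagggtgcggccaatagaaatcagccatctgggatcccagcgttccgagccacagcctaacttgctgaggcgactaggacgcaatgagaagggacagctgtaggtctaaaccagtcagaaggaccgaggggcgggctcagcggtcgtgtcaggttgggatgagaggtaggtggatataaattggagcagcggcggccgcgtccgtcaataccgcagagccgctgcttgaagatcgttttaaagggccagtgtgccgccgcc

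Hyou1 (chr8:53602632-53602931, plus strand): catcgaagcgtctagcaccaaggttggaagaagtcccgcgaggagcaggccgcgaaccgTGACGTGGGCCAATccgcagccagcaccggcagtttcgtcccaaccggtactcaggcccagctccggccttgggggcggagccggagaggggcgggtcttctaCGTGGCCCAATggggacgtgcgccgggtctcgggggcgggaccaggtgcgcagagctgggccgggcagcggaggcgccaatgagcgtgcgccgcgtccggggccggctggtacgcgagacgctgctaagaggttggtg

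Herpud1 (chr19:10614658-10614957, minus strand): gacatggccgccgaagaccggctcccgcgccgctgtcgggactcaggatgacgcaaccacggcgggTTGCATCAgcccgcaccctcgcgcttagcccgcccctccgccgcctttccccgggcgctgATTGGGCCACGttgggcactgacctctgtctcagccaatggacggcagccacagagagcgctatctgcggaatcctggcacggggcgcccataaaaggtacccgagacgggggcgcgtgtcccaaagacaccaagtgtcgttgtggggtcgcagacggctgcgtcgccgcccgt

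Chac1 (chr3:126795881-126796180, plus strand): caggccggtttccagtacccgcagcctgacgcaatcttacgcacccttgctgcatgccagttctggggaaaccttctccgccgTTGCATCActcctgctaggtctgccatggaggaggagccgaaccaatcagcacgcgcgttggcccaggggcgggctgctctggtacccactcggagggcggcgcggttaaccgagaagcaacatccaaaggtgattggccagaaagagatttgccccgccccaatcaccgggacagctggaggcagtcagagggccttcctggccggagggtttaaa

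The match in Hspa5 began 43 bases before the gene start, and that in Calr, on the opposite strand, 232 bases before it. In Hyou1 the UPRE match at 191 bases before the start overlaps an ERSE-II match at 188 bases, so they appear as 1 run of capitals, and a further ERSE-II match lies at 88 bases. Herpud1, alone among the 28, held a match from each branch, a CARE at 184 bases and an ERSE-II at 124 bases before its start. The CARE of Chac1 lay 167 bases before its start.

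Levels over the 6 libraries ranged over more than 2 orders of magnitude. Atf4 was the most abundant of the 30 genes, at a mean of 412 FPKM, above 99.6% of all tested genes. Calr, Pdia3, Hspa5, Atf5 and Hsp90b1 followed with means of 199.7, 162, 141, 122 and 121 FPKM, so that 4 of the next 5 genes were ER chaperones. At the other end stood Trib3 at 2.61 FPKM, Phgdh at 3.15 FPKM, Psat1 at 3.61 FPKM and Slc7a11 at 4.28 FPKM. The median of the 30 means was 24.7 FPKM, against 12.9 FPKM for all tested genes. The chaperone group had a median of 42.2 FPKM, the regulators 18.3 FPKM and the amino acid and one-carbon genes 16.03 FPKM.

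**Figure D1:**
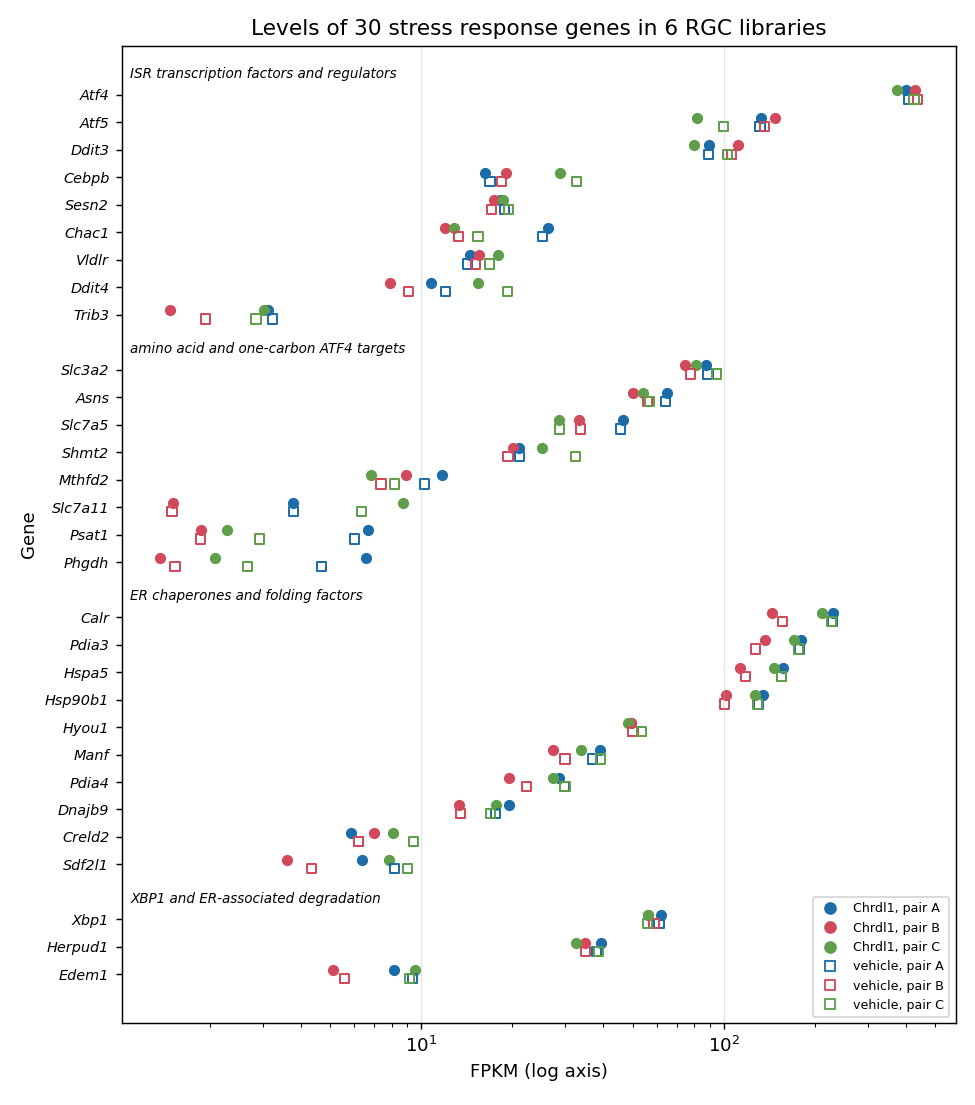
Level of each of the 30 genes (vertical axis, grouped by role) in FPKM on a log axis, with filled circles for Chrdl1 and open squares for vehicle libraries and a colour per title code pair. Circles and squares of 1 colour lie close together, from Trib3 at 1.48 to 3.23 FPKM up to Atf4 at 373 to 437 FPKM, while colours separate for genes such as Slc7a11 and Psat1.

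Chrdl1 did not move any of the 30 genes past the test. By limma on log2(FPKM + 1), 0 of the 30 genes had a Benjamini-Hochberg adjusted p under 0.05, where the share called among all tested genes was 0%. At an unadjusted p under 0.05 there were 0 of the 30, against 0.173% of all tested genes (18 of 10390). With the title code as a block limma called 0 of the 30 and 0 of all tested genes, with 2 of the 30 and 5.15% of all tested genes (535) at an unadjusted p under 0.05. Run with voom weights on the reads recovered from the FPKM values, limma also called 0 genes, with 2 of all tested genes and 0 of the 30 at an unadjusted p under 0.05. The 2 genes at that level under the block were Ddit4 (unadjusted p = 0.0241) and Sdf2l1 (unadjusted p = 0.0262), each with an adjusted p of 0.872 by limma. Without the block, the smallest adjusted p among the 30 was 0.9998.

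The estimated log2 fold changes of the 30 genes, Chrdl1 minus vehicle on the log2(FPKM + 1) scale, lay between -0.24 and 0.14. Of the 30 estimates, 8 were above 0 and 22 below, with a median of -0.06; of all tested genes 3989 were above 0 and 6401 below, with a median of -0.03. The median 95% interval over all tested genes, without pairing and not adjusted for the number of genes, reached 0.37 to either side. A smaller difference was thus not detectable without pairing for a typical gene, and a call after adjustment needed a larger one. Lower values with Chrdl1 in all 3 pairs were found for 6 of the 30 (Atf4, Ddit4, Slc3a2, Pdia4, Sdf2l1 and Hyou1), against 19.5% of all tested genes, and higher values in all 3 pairs for 1 (Vldlr), against 7.55%. The first count was near its background, and the second rested on 1 gene.

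The tilt towards lower values was largest in pair C. The median log2 difference of the 30 genes was 0.01 in pair A, -0.02 in pair B and -0.16 in pair C, and over all tested genes it was -0.01, -0.02 and -0.05. In pair C the difference between the Chrdl1 and the vehicle library also went with transcript length across the 10390 genes, with a rank correlation of 0.39, compared with 0.028 in pair A and 0.026 in pair B. The 30 transcripts had a median length of 1852 bases, shorter than the 2136 bases of all tested genes. Over all pairs, the median of the 30 was -0.02 with the length trend removed, against -0.005 for all tested genes. With quantile normalization it was also -0.02, against 0.0006 for all tested genes. The part of transcript length in the pair C difference was not tested.

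**Figure D2:**
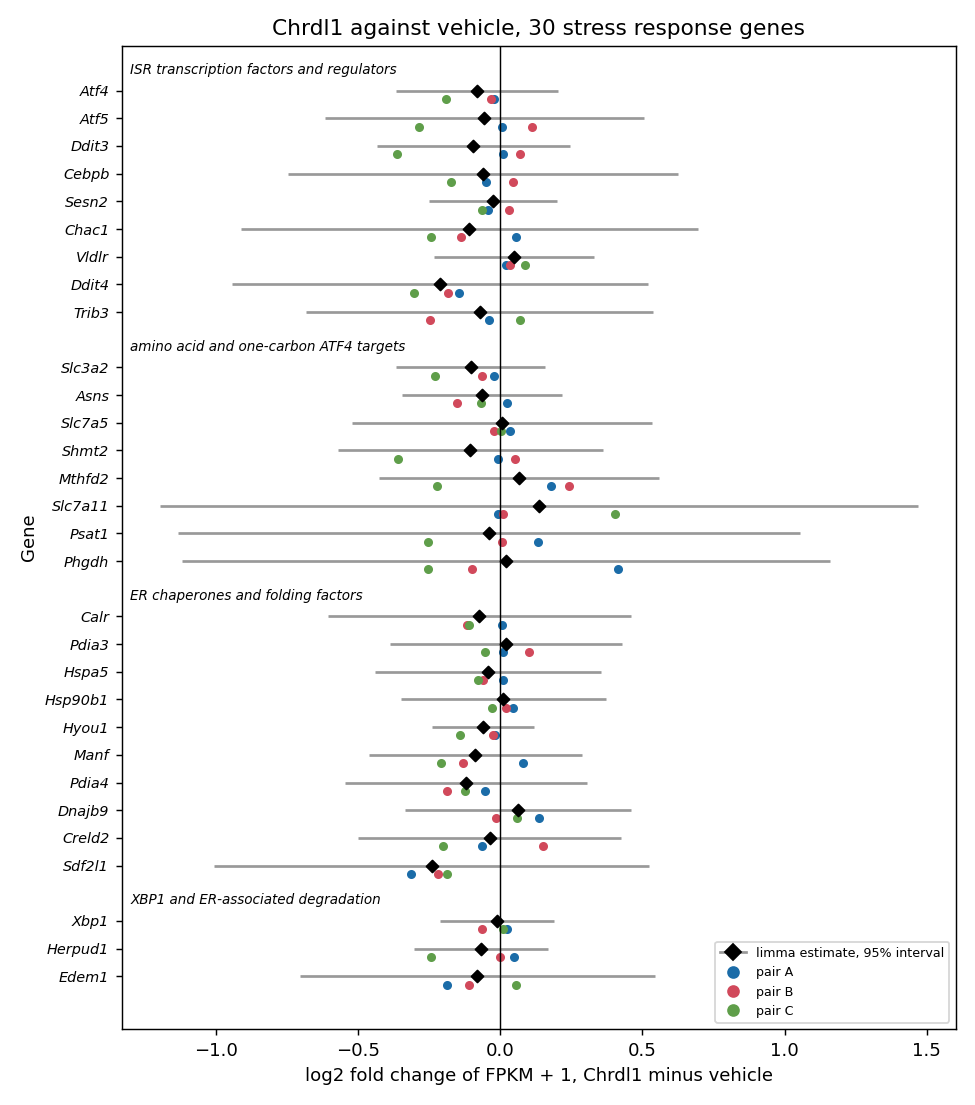
Log2 fold change of FPKM + 1, Chrdl1 minus vehicle (horizontal axis), for each of the 30 genes, with the limma estimate and 95% interval as a diamond and bar and the difference within each title code pair as a coloured dot. The intervals are from the fit without the block, and every one crosses 0. The estimates lie between -0.24 and 0.14, and many of the lowest dots belong to pair C.

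The 30 genes differed far more between title codes than between Chrdl1 and vehicle. A limma F test of the code, with treatment in the model, called 23 of the 30 genes (76.7%) at an adjusted p under 0.05, against 47.4% of all tested genes. The code accounted for 94.0% of the sum of squares of the 30 genes and treatment for 2.18%, against 88.9% and 3.91% over all tested genes. Both libraries of pair B lay below the other 4 for 17 of the 30 (56.7%), against 20% of all tested genes. Both libraries of pair A lay above the other 4 for 12 of the 30 (40%), against 13.6%, and both libraries of pair C for 6 of the 30, against 23.4%. The 7 genes not called were Atf4, Sesn2, Vldlr, Slc3a2, Hyou1, Herpud1 and Xbp1. Beside these differences, the summed markers of microglia, of astrocytes and Müller glia, and of photoreceptors were lowest in pair B and highest in pair C. So were those of endothelial, mural and fibroblast cells, with the values given above. That last sum rested mainly on Col3a1, Pdgfrb and Col1a1. Its endothelial genes Pecam1 and Cldn5 did not exceed 0.397 and 0.029 FPKM. Kdr, also highest in pair C, was lowest in pair A, at 1.19 and 1.45 FPKM against 2.065 and 2.09 FPKM in pair B. The amacrine and bipolar list was also highest in pair C but lowest in pair A. There Prkca was at 9.31 and 8.475 FPKM, against 11.7 and 12.3 FPKM in pair B, while 2 of the 4 tested markers were lowest in both pair B libraries. The oligodendrocyte list was instead highest in pair B. It rested mainly on Mbp and Mog, as Olig1 and Olig2 did not exceed 0.088 and 0.016 FPKM. The RGC sum had its lowest value in pair C, although 1 of its 9 markers, Thy1, was lowest in both pair B libraries (133 and 153 FPKM). The part of these cells in the code differences was not tested, and in bulk RNA fewer cells of a type and less RNA per cell cannot be told apart.

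**Figure D3:**
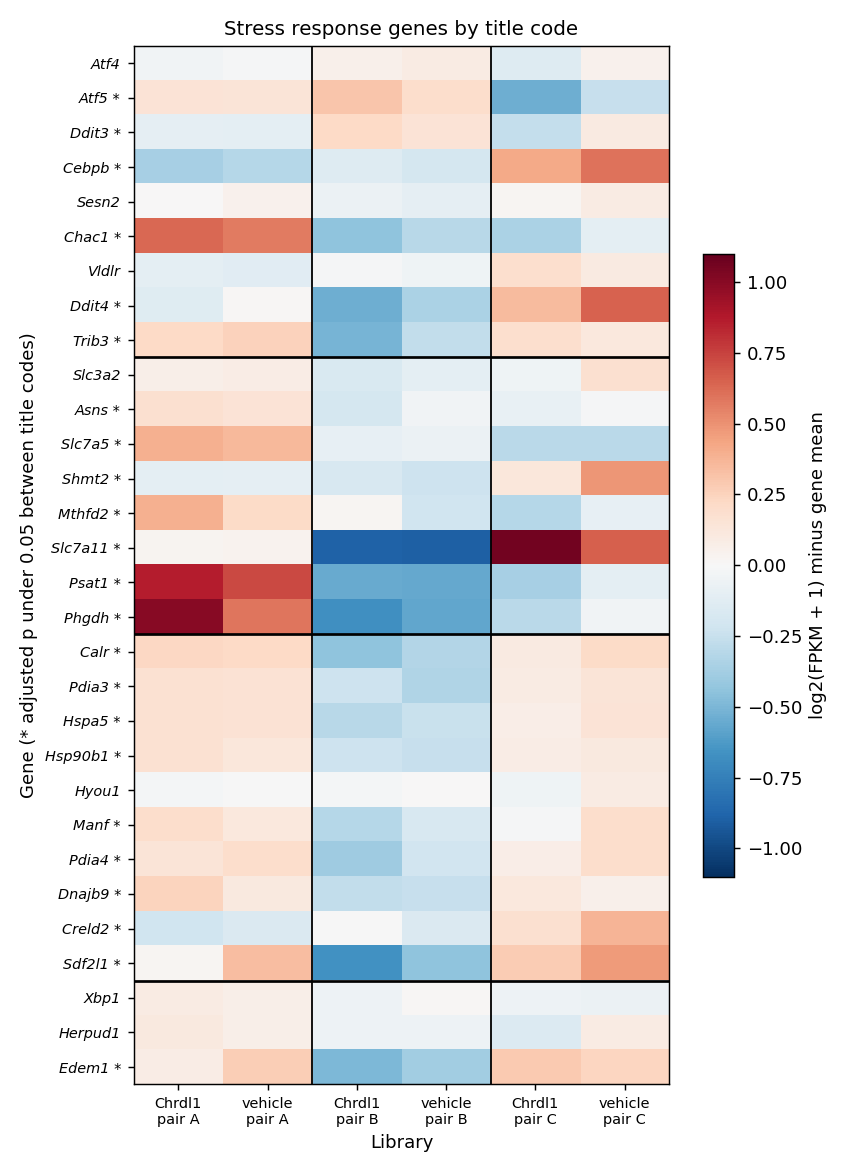
Heat map of log2(FPKM + 1) minus each gene's mean over 6 libraries (colour scale) for the 30 genes (rows, by role) in the Chrdl1 and vehicle library of pairs A, B and C (columns), with an asterisk for an adjusted p under 0.05 between title codes. The 8 chaperones that were lowest in pair B form a blue block in both of its libraries, whereas Atf4, Hyou1 and Xbp1 are nearly white throughout.

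Among the regulators, Atf4 was both the highest and one of the steadiest. In pair order A, B, C, which is used for all sets of 3 values that follow, it was at 402, 428 and 373 FPKM in the Chrdl1 libraries and at 408, 437 and 426 FPKM in the vehicle libraries. The groups overlapped, and the lowest value was the Chrdl1 library of pair C. Means were 401 ± 27.2 FPKM with Chrdl1 and 424 ± 15.0 FPKM with vehicle (SD, n = 3 each), for a log2 fold change of -0.08 (95% interval -0.37 to 0.20). Atf4 spans bases 121480723 to 121482781 of chromosome 7 on rn6. Between codes its limma adjusted p was 0.444, but it was called with quantile normalization (0.000262), with the length trend removed (0.00294) and without the vehicle library of pair C (0.0200). Because ATF4 is controlled mainly by translation, its mRNA level does not measure the protein.

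Ddit3 encodes CHOP, a factor that promotes cell death under lasting ER stress. It stood at 89.6, 112 and 79.9 FPKM in the Chrdl1 libraries, compared with 89.0, 106 and 103 FPKM in vehicle. The groups overlapped, and both libraries of pair B lay above the other 4. Its log2 fold change with Chrdl1 was -0.09 (95% interval -0.43 to 0.25), and -0.36 within pair C alone. The difference between codes passed narrowly (limma adjusted p = 0.0494, C minus B -0.26); the adjusted p was 0.570 without the Chrdl1 library of pair B, 0.114 without the vehicle library of pair A, 0.173 with no filter and 0.0574 with a pseudocount of 0.1.

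Chac1, which degrades glutathione, and Trib3, a pseudokinase that restrains ATF4 and Akt, are targets acting downstream of ATF4 and CHOP. Chac1 measured 26.3, 12.0 and 12.9 FPKM in Chrdl1 libraries, against 25.2, 13.3 and 15.4 FPKM in vehicle libraries. Trib3 measured 3.12, 1.48 and 3.04 FPKM with Chrdl1 and 3.23, 1.94 and 2.85 FPKM with vehicle, on 40 to 112 reads per library. Chac1 was higher in pair A than in the other pairs under both treatments, with a B minus A log2 difference of -0.98 and a limma adjusted p of 1.37e-05. Trib3 was lowest in pair B (limma adjusted p = 0.00705), a call that ended without the Chrdl1 library of pair B (0.0673). Log2 fold changes with Chrdl1 were -0.11 for Chac1 (95% interval -0.91 to 0.69) and -0.07 for Trib3 (-0.68 to 0.54).

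Ddit4 and Cebpb were highest in pair C. Ddit4, also called REDD1, inhibits mTORC1, and Cebpb encodes C/EBP beta, which pairs with ATF4 on DNA. Ddit4 was at 10.8, 7.90 and 15.4 FPKM in Chrdl1 libraries and at 12.0, 9.11 and 19.3 FPKM in vehicle libraries. In each pair the Chrdl1 library was the lower one, although the groups as a whole overlapped. Its log2 differences within pairs A, B and C were -0.15, -0.18 and -0.30, and its log2 fold change was -0.21 (95% interval -0.94 to 0.52 without the block, -0.39 to -0.03 with it, limma adjusted p = 0.872 with it). The code difference was larger, C minus B 0.94 (limma adjusted p = 3.73e-05). Cebpb was at 16.3, 19.1 and 28.7 FPKM in Chrdl1 libraries and 16.9, 18.5 and 32.6 FPKM in vehicle libraries, with C minus A at 0.85 (limma adjusted p = 2.53e-05) and a Chrdl1 log2 fold change of -0.06 (95% interval -0.75 to 0.63).

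Vldlr, a lipoprotein receptor that ATF4 is known to raise in other cells, was the only gene of the 30 above vehicle in every pair. It was at 14.5, 15.5 and 17.9 FPKM with Chrdl1 and 14.2, 15.1 and 16.8 FPKM with vehicle. The pair differences were 0.02, 0.04 and 0.09 on the log2 scale and the fold change was 0.05 (95% interval -0.23 to 0.33). Atf5, a bZIP factor of the mitochondrial stress response, was between 81.8 and 147 FPKM with Chrdl1 and between 99.8 and 136 FPKM with vehicle, lowest in both libraries of pair C (limma adjusted p = 0.000288). Sesn2, an mTORC1 inhibitor that senses leucine, was at 17.4 to 18.6 FPKM with Chrdl1 and 17.1 to 19.5 FPKM with vehicle, and the code was not called (limma adjusted p = 0.387).

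Of the 8 amino acid and one-carbon genes 7 were called between codes, against 47.4% of all tested genes, and Slc7a11, Phgdh and Psat1 had the widest code differences of all 30 genes. The serine synthesis enzymes Phgdh and Psat1 were high in pair A. Psat1 was at 6.69, 1.88 and 2.29 FPKM in Chrdl1 libraries and 6.02, 1.87 and 2.92 FPKM in vehicle libraries, so that pair A stood above the rest in both groups. Its B minus A log2 difference was -1.35 (limma adjusted p = 2.59e-05) on 55 to 316 reads per library. Phgdh, which acts first in the pathway, ran from 1.37 to 6.57 FPKM with Chrdl1 and from 1.54 to 4.68 FPKM with vehicle, again with pair A on top (B minus A -1.42, limma adjusted p = 8.39e-05). The Chrdl1 log2 fold change of Psat1 was -0.04 (95% interval -1.13 to 1.05).

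Slc7a11, the cystine carrier of system xc-, had both the widest code difference of the 30 and the smallest adjusted p. It was at 3.77, 1.52 and 8.74 FPKM in the Chrdl1 libraries and at 3.80, 1.502 and 6.36 FPKM in the vehicle libraries, on 194 to 1877 reads. The Chrdl1 and vehicle libraries of pairs A and B were almost the same, and pair C held the largest values. C minus B was 1.75 on the log2 scale (limma adjusted p = 3.75e-06), while the Chrdl1 log2 fold change was 0.14 (95% interval -1.20 to 1.47). The gene lies at bases 139453774 to 139528162 of chromosome 2 on rn6. Its partner chain Slc3a2, shared with Slc7a5, was also lowest in both libraries of pair B, but with a smaller C minus B difference of 0.20. For Slc3a2 pair C did not stand above pair A (means of 87.9 and 88.0 FPKM). Slc3a2 was at 87.4, 74.3 and 80.9 FPKM with Chrdl1 and 88.7, 77.7 and 94.96 FPKM with vehicle, lower with Chrdl1 in each pair and overlapping as groups, for a log2 fold change of -0.10 (95% interval -0.37 to 0.16). Between codes Slc3a2 had a limma adjusted p of 0.0666, which became 0.00455 without the Chrdl1 library of pair C, 0.0157 without the vehicle library of pair C and 0.0283 with median centring.

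Slc7a5 carries large neutral amino acids and stood highest in pair A. It measured 46.6, 33.2 and 28.6 FPKM in Chrdl1 libraries and 45.5, 33.7 and 28.6 FPKM in vehicle libraries, the closest match between the treatments in this group. Its Chrdl1 log2 fold change was 0.01 (95% interval -0.52 to 0.53) and its C minus A difference -0.67 (limma adjusted p = 7.83e-05). Mthfd2 and Shmt2 are mitochondrial enzymes of folate metabolism. Mthfd2 was at 11.7, 8.91 and 6.85 FPKM with Chrdl1 and 10.3, 7.37 and 8.15 FPKM with vehicle, above vehicle in pairs A and B and below it in pair C, for a log2 fold change of 0.07 (95% interval -0.43 to 0.56). Mthfd2 was highest in pair A (limma adjusted p = 0.0144), a call that ended without the Chrdl1 library of pair A (0.223) and with no filter (0.0825). Shmt2 instead was highest in pair C, at 20.1 to 25.0 FPKM with Chrdl1 and 19.4 to 32.4 FPKM with vehicle (limma adjusted p = 0.00387). Asns, asparagine synthetase and a standard ATF4 reporter, was at 50.3 to 65.2 FPKM with Chrdl1 and 56.0 to 64.1 FPKM with vehicle, highest in pair A (limma adjusted p = 0.0242); the adjusted p was 0.474 and 0.114 without the Chrdl1 library of pair A or of pair B, 0.120 without the vehicle library of pair A, 0.0744 with quantile normalization and 0.0521 with no filter.

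Most ER chaperones were lowest in pair B. Of the 10 genes, 9 were called between codes, against 47.4% of all tested genes, and for 8 (Hspa5, Hsp90b1, Pdia4, Pdia3, Calr, Dnajb9, Sdf2l1 and Manf) both libraries of pair B lay below the other 4, against 20% of all tested genes. The median B minus A difference of the 10 was -0.43 and the median C minus B difference 0.37, against 0.03 and 0.03 over all tested genes, while C minus A was -0.05. The B minus A median lay between -0.49 and -0.30 under every alternative scaling, filter or pseudocount run on all 6 libraries. The call of Pdia3 ended without the vehicle library of pair B (limma adjusted p = 0.0872), as did that of Hsp90b1 (0.0589), and the call of Manf ended with the length trend removed (0.0650).

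Hspa5, the ER Hsp70 also called BiP and the usual reporter of the unfolded protein response, was at 157, 113 and 147 FPKM in Chrdl1 libraries and at 156, 118 and 155 FPKM in vehicle libraries. The groups overlapped almost completely, and pair B was low under both treatments. Means were 139 ± 22.9 FPKM with Chrdl1 and 143 ± 21.6 FPKM with vehicle (SD, n = 3 each), with a log2 fold change of -0.04 (95% interval -0.44 to 0.35). B minus A was -0.43 (limma adjusted p = 0.000990). Hsp90b1, the ER Hsp90 known as GRP94, was at 102 to 135 FPKM with Chrdl1 and 100.5 to 131 FPKM with vehicle.

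Calr, a lectin chaperone and calcium store protein, was at 230.4, 144 and 211 FPKM in Chrdl1 libraries and 229, 157 and 227 FPKM in vehicle libraries. Pdia3, the disulfide isomerase that works with it, was at 179.8, 137 and 170.5 FPKM with Chrdl1 and 178, 127 and 177 FPKM with vehicle. For both genes pair B was the low pair in both groups, with B minus A at -0.61 for Calr (limma adjusted p = 8.75e-05) and -0.44 for Pdia3 (limma adjusted p = 0.00110). Chrdl1 log2 fold changes were -0.07 for Calr (95% interval -0.61 to 0.46) and 0.02 for Pdia3 (-0.39 to 0.43).

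Sdf2l1, a partner of Hspa5 in folding, had the lowest fold change estimate of the 30. It was at 6.39, 3.59 and 7.80 FPKM in Chrdl1 libraries and 8.18, 4.35 and 9.03 FPKM in vehicle libraries, on 67 to 254 reads. Each Chrdl1 library was below the vehicle library of its pair, by -0.31, -0.22 and -0.19 on the log2 scale, but the groups overlapped. The log2 fold change was -0.24 (95% interval -1.01 to 0.52 without the block, -0.45 to -0.03 with it, limma adjusted p = 0.872 with it). Its code difference was wider, C minus B 0.92 (limma adjusted p = 0.000107). Dnajb9, the Hsp40 cofactor ERdj4, was at 19.5, 13.4 and 17.7 FPKM with Chrdl1 and 17.6, 13.5 and 16.9 FPKM with vehicle, with pair B low, a B minus A difference of -0.44 (limma adjusted p = 0.00495) and a Chrdl1 log2 fold change of 0.06 (95% interval -0.34 to 0.46).

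Hyou1, the large Hsp70 relative GRP170, was the flat member of the group. It was at 49.2, 49.3 and 48.4 FPKM in Chrdl1 libraries and at 49.8, 50.2 and 53.4 FPKM in vehicle libraries. All Chrdl1 values lay below all vehicle values, the only such case among the 30, where 1.87% of all tested genes showed it; 0 of the 30 showed the opposite, against 0.577%. The log2 fold change was -0.06 (95% interval -0.24 to 0.12), and the code was not called (limma adjusted p = 0.899). Among the others, the disulfide isomerase Pdia4 was at 19.5 to 28.6 FPKM with Chrdl1 and 22.3 to 29.9 FPKM with vehicle, and Manf, a secreted factor that protects neurons, at 27.2 to 39.0 and 29.9 to 39.1 FPKM. Creld2 was at 5.89 to 8.07 FPKM with Chrdl1 and 6.19 to 9.42 FPKM with vehicle. By pair mean it was highest in pair C, as Sdf2l1 was. Among the called chaperones, Creld2 alone was lowest in pair A and not in pair B (limma adjusted p = 0.0176). Its adjusted p was 0.0721 without Chrdl1 A, 0.0546 without vehicle A and 0.153 without vehicle C (libraries named by group and pair), and 0.169, 0.0785, 0.0755 and 0.0556 with quantile normalization, length trend removal, no filter or median centring.

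Of the XBP1 and degradation branch only Edem1 was called between codes. Edem1, which hands misfolded glycoproteins to degradation, was at 5.12 to 9.53 FPKM with Chrdl1 and 5.59 to 9.39 FPKM with vehicle, lowest in both libraries of pair B (limma adjusted p = 0.000662). Xbp1 was at 62.1, 56.2 and 56.3 FPKM in Chrdl1 libraries and 61.1, 58.9 and 55.9 FPKM in vehicle libraries, a narrow band in which the groups overlapped. Its Chrdl1 log2 fold change was -0.01 (95% interval -0.21 to 0.19). The table gives 1 transcript per gene, so the spliced and unspliced forms of Xbp1 mRNA cannot be told apart. Between codes Xbp1 had a limma adjusted p of 0.301, which was 0.0345 with median centring and 0.0152 with the length trend removed. Herpud1, an ER membrane protein of the degradation complex, was at 32.5 to 39.2 FPKM with Chrdl1 and 34.9 to 38.6 FPKM with vehicle (limma adjusted p = 0.342 between codes, 0.0424 with the vehicle library of pair C left out).

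Motif matches are set here beside the code patterns of the genes, and a link between them was not tested. Of the 7 genes with an ERSE or ERSE-II match, Hspa5, Hsp90b1 and Calr were lowest in both libraries of pair B, Creld2 was highest in pair C, and Hyou1, Herpud1 and Xbp1 were not called. Pdia4, Dnajb9 and Sdf2l1, which had no such match in the window, had the same low pair B as Hspa5. Pdia3 and Manf, also low in pair B, had no promoter entry to search.

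The remaining genes of the pathway were examined through 4 further lists of 90 genes, of which 87 were in the table and 81 were tested. For Chrdl1 limma called 0 of the 81, with 0 at an unadjusted p under 0.05. With the block 6 were at that level, near the 5.15% of all tested genes, and 0 were called. They were 3 of the 16 other ATF4 and stress response targets and 3 of the 29 other ER folding and degradation genes, with 0 of the 17 sensors and translation control genes and 0 of the 19 synthetases. Between codes 36 were called (44.4%), close to the 47.4% of all tested genes. Sensors and translation control genes gave 6 of 17 (35.3%), aminoacyl-tRNA synthetases 5 of 19 (26.3%), other ER folding and degradation genes 14 of 29 (48.3%), and other ATF4 and stress response targets 11 of 16 (68.8%). Pair B was below the other 4 libraries for 15 of the 29 other ER folding genes (51.7%) but for 1 of the 19 synthetases (5.26%), against 20% of all tested genes. Pair A was above the other 4 for 8 of those 19 (42.1%), against 13.6%.

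**Figure D4:**
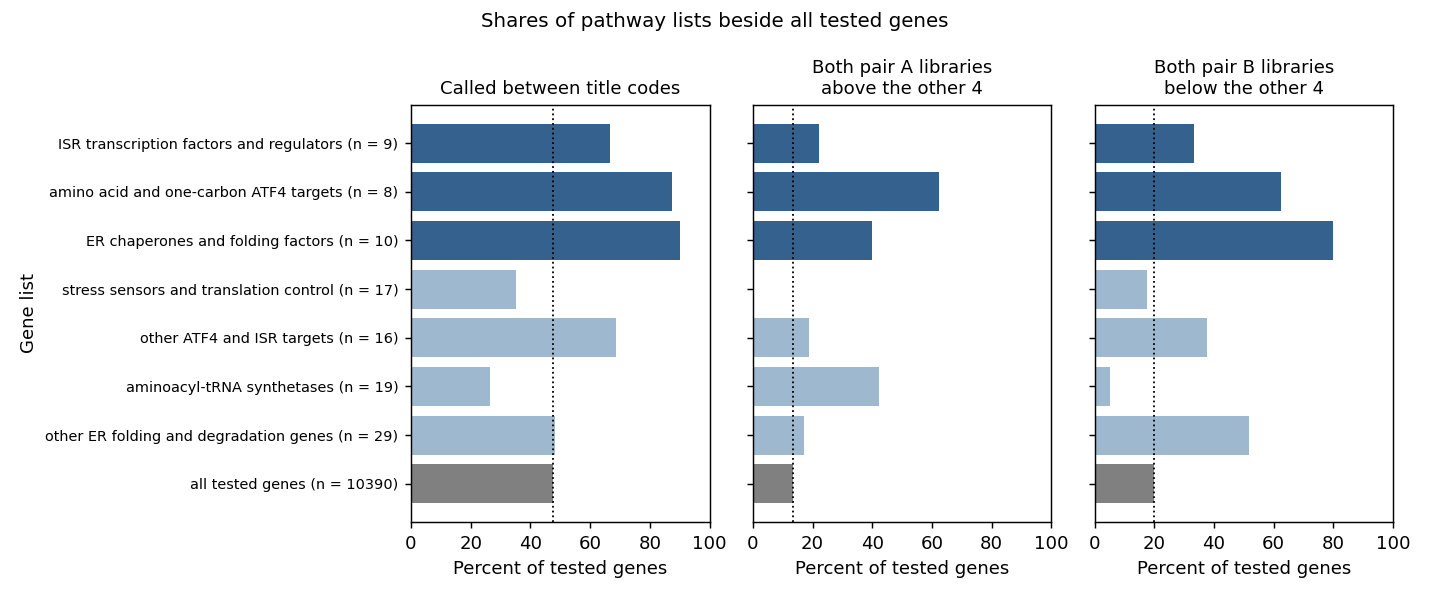
Percent of tested genes (horizontal axes) called between title codes, with both pair A libraries above the other 4, and with both pair B libraries below the other 4, for 3 of the 4 role groups (dark bars), the 4 further pathway lists (light bars) and all tested genes (grey bar, dotted line). The chaperone bar reaches 80% for low pair B against 20% of all tested genes, and the amino acid and one-carbon bar reaches 62.5% for high pair A against 13.6%.

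Gdf15, a secreted stress cytokine induced by ATF4 and CHOP, had the smallest adjusted p between codes in its list. It was at 10.8, 3.80 and 27.1 FPKM in Chrdl1 libraries and 11.1, 5.75 and 34.3 FPKM in vehicle libraries. Pair B was lowest and pair C highest under both treatments, with C minus B at 2.47 on the log2 scale (limma adjusted p = 1.89e-08). Eif4ebp1, which encodes the translation repressor 4E-BP1, was at 8.05, 3.90 and 10.5 FPKM with Chrdl1 and 10.4, 5.80 and 14.7 FPKM with vehicle. In every pair the Chrdl1 library was lower, by -0.34, -0.47 and -0.45 on the log2 scale, with overlapping groups and a log2 fold change of -0.42 (95% interval -1.37 to 0.53). With the block its unadjusted p was 0.000460 and its limma adjusted p 0.538. The other target selected for its Chrdl1 estimate, the glutamine transporter Slc1a5, had a log2 fold change of -0.24 (95% interval -0.80 to 0.32).

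Among the sensors, Eif2ak3, which encodes PERK, was at 27.2, 27.3 and 20.002 FPKM with Chrdl1 and 27.7, 25.6 and 18.3 FPKM with vehicle. Unlike the chaperones it was as high in pair B as in pair A and lowest in pair C (C minus A -0.50, limma adjusted p = 0.000904). Mbtps1, the protease that first cuts ATF6, was highest in pair C (limma adjusted p = 0.00721). The 2 sensors with the smallest unadjusted p for Chrdl1 were Ern1, which encodes IRE1, with a log2 fold change of 0.24 (95% interval -0.18 to 0.66), and the eIF2B subunit Eif2b4, at -0.14 (-0.43 to 0.15). Of the synthetases, Cars (limma adjusted p = 0.00355) and Gars (limma adjusted p = 0.00653) were highest in pair A, as Asns, Psat1 and Slc7a5 were. Kars and Sars had the smallest unadjusted p for Chrdl1, at log2 fold changes of -0.11 (95% interval -0.31 to 0.08) and -0.09 (-0.33 to 0.15).

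Among the other ER folding genes, 15 of 29 had the low pair B, as counted above, and 14 of 29 did not. Sec61b, a subunit of the translocation channel, was at 37.8, 23.9 and 36.0 FPKM with Chrdl1 and 37.2, 23.5 and 44.98 FPKM with vehicle, with C minus B at 0.74 (limma adjusted p = 0.000109). The disulfide isomerase P4hb was lowest in pair B and highest in pair C (C minus B 0.56, limma adjusted p = 0.000221). Sil1, the nucleotide exchange factor of Hspa5, was below vehicle in each pair, with a log2 fold change of -0.31 (95% interval -0.72 to 0.10), and Sec61a1 likewise at -0.13 (-0.35 to 0.08). Neither passed the limma test with adjustment. Of the 6 listed genes that failed the filter, Nupr1 and Aldh18a1 are listed at 0 in every library, and Ern2, Cth, Aldh1l2 and Pdia5 did not exceed 0.043, 0.407, 0.644 and 1.12 FPKM.

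Summed levels show how the groups moved against the markers of other cells. The 10 chaperones summed to 850.2, 616 and 798 FPKM in the Chrdl1 libraries, in pair order, and to 842, 629 and 847 FPKM in the vehicle libraries. The 8 amino acid and one-carbon genes summed to 249, 192 and 209 FPKM with Chrdl1 and to 244, 199 and 233 FPKM with vehicle. The sum of the 9 regulators, of which Atf4 was the largest part, was at 713, 760.1 and 631 FPKM with Chrdl1 and 719, 755 and 735 FPKM with vehicle, highest in pair B; gene by gene, 3 of the 9 had both pair B libraries below the other 4 and 3 had both above. The microglia and macrophage markers summed to 202, 14.6 and 271 FPKM in the Chrdl1 libraries and 247, 27.2 and 301 FPKM in the vehicle libraries, and all 10 tested markers of that list were lowest in both libraries of pair B, against 20% of all tested genes. Pair B thus had the lowest sum both of these markers and of the chaperones. Pair C, with the highest marker sum, was below pair A in chaperones in the Chrdl1 libraries (798 and 850.2 FPKM). In the vehicle libraries pair C was slightly above pair A (847 and 842 FPKM). The part of these cells in the chaperone sums was not tested.

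**Figure D5:**
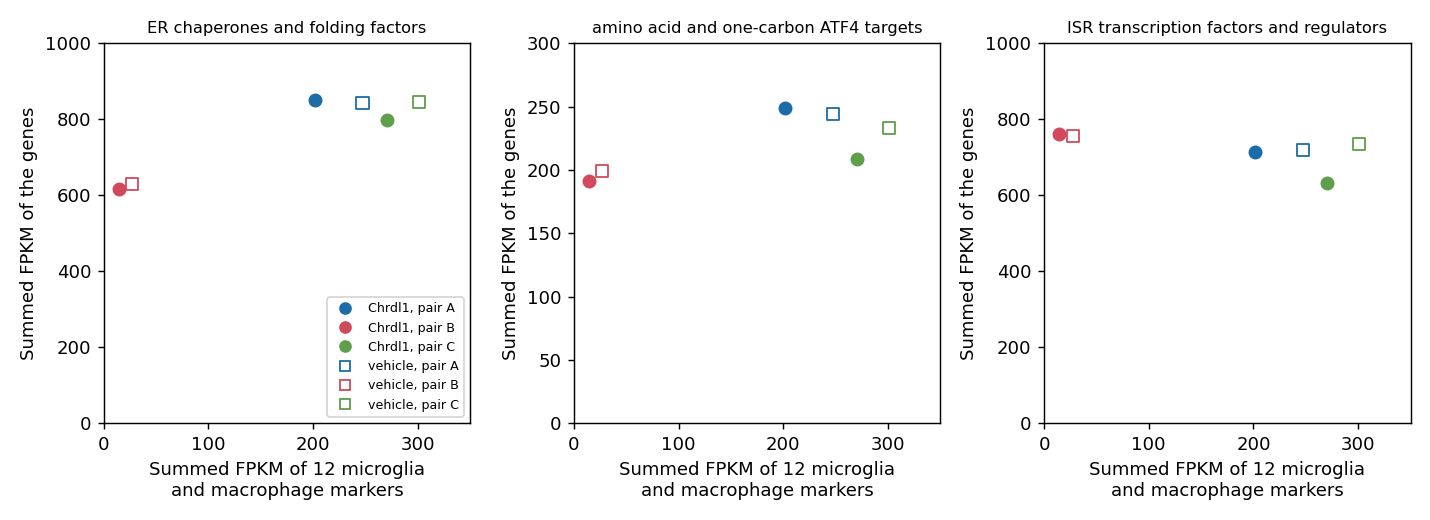
Summed FPKM of the chaperones, the amino acid and one-carbon genes and the regulators (vertical axes) against the summed FPKM of 12 microglia and macrophage markers (horizontal axes), with 1 point per library, filled circles for Chrdl1, open squares for vehicle and a colour per pair. The pair B libraries, at 14.6 and 27.2 FPKM of markers, lie lowest for the chaperones, at 616 and 629 FPKM, and highest for the regulators, at 760.1 and 755 FPKM.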

How the data were processed

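RNA-seq was done on 3 Chrdl1 and 3 vehicle libraries, made with a stranded mRNA kit per the labels. Per the submitters' processing notes, reads were processed with FastQC, with STAR (2.4.0k) and with HOMER (4.8.3), on build rn6. An annotation release is not given in the sources used here. As deposited, the authors' data were 1 table of FPKM values with transcript lengths, accessions and coordinates on rn6. Of the 30 accessions, 29 carried the same symbol in the RefSeq gene table of GRCr8, which was used for names and promoters only.

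Read totals were recovered from the steps of the FPKM values. Per library, 99.8% to 100% of the values above 0 that could be checked were whole reads within 0.05 read. The check covered only transcripts short enough for FPKM rounding to amount to less than 0.05 read. Longer ones such as Slc7a11 (8880 bases) were outside it, so their read numbers are approximate. These recovered counts were used for voom only. Precision is therefore limited by 40 to 112 reads for the lowest member, Trib3.

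limma 3.58.1 in R 4.3.3 (lmFit, eBayes with trend, two-sided) was run on log2(FPKM + 1) for the 10390 transcripts that reached FPKM 1 in 3 or more libraries, with Benjamini-Hochberg adjustment over all of them and calls under 0.05. Treatment was the only term. A moderated F test of the title code had treatment as a term. Fold changes on this scale understate those of low genes. The fits were tested on simulated data. Tables were made with Python 3.11.15 and pandas 2.3.3.

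Libraries with the same code deviated together from their group means (correlations over genes 0.82, 0.86 and 0.84 in pairs A, B and C; 0.95, 0.95 and 0.91 over the 30 genes), so the codes were taken to pair the libraries. This rests on the data, since the labels do not define the code.

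Genes given in detail were the 3 with the highest mean level, the 3 with the smallest unadjusted p for Chrdl1 in each direction, the 6 with the smallest adjusted p between codes, and Atf4, Ddit3, Trib3, Hspa5 and Xbp1; for each further list, the 2 with the smallest p in each comparison. Calls of other members are given beside them. Members and lists were chosen with earlier results of these data known, so no list was tested.

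Alternatives were quantile normalization, median centring, pseudocounts of 0.1 and 5, no filter, a filter at FPKM 5, voom, robust eBayes, each library or pair left out, and the code as a block, alone or with another choice. Removing the length trend without the block was chosen after seeing the data.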

Additional observations from a re-analysis of the deposited data

How the results depend on the processing

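No alternative gave a called Chrdl1 difference for any of the 30 genes. Over all tested genes the count was 0 under every alternative except with the replicate block and 1 pair left out: 25 without pair A and 34 without pair B, which leave few degrees of freedom. With the replicate block and all pairs it was 0, and pairing changed no call.

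Without 1 library the groups no longer hold the same codes. The median log2 fold change of the 30 genes then lay between -0.155 and 0.046, and the count of genes called between codes, over all tested genes, between 3148 (without the Chrdl1 library of pair A) and 5581. The ranges of log2 fold changes that crossed 0 were -0.25 to 0.13 for Calr, -0.14 to 0.14 for Pdia3, -0.033 to 0.112 for Vldlr, -0.051 to 0.210 for Dnajb9, -0.11 to 0.24 for Mthfd2, -0.52 to 0.031 for Sdf2l1, -0.36 to 0.61 for Slc7a11, -0.45 to 0.15 for Chac1, -0.28 to 0.22 for Cebpb, -0.48 to 0.32 for Psat1, -0.44 to 0.062 for Ddit4, -0.19 to 0.18 for Slc7a5, -0.23 to 0.013 for Ddit3, -0.22 to 0.17 for Trib3, -0.17 to 0.10 for Hspa5 and -0.058 to 0.019 for Xbp1.

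With a pair left out, with or without the block, the sign also turned for Pdia3 (-0.022) and Mthfd2 (-0.022) without pair B, Trib3 (0.015) and Xbp1 (0.016) without pair B, Slc7a5 (-0.0095) without pair A, and Psat1 (0.069) and Ddit3 (0.040) without pair C. Psat1 was 0.0093 with block and voom. Hspa5 was 0.018 with quantile normalization, with or without the block. Xbp1 was 0.038 with quantile normalization, 0.0053 with median centring, 0.016 with voom, 0.017 with block and voom, and 0.027 with the length trend removed, with or without the block. None of these values was called in any fit, and the cause was not tested.

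Between codes 63.3% to 83.3% of the tested members were called across alternatives, and 28.7% to 54.8% of all tested genes; with a filter at FPKM 5 it was 19 of the 26 members tested. Depth limits Trib3, Psat1, Phgdh and Sdf2l1 most; the vehicle library of pair B holds 40 to 67 reads for each.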
